A study of Mus musculus with 18 samples.

Results

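RNA was measured in cultured cortical neurons of Fmr1 knockout (KO) and wild-type (WT) mice. The genes described here encode histone methyltransferases, histone demethylases and relatives that share their gene names. They were taken from the count table by name: protein-coding genes whose symbol starts with Kdm1 to Kdm8, Setd, Setdb, Mll1 to Mll5, Ehmt1, Ehmt2, Suv, Nsd1, Whsc1, Prmt1 to Prmt9, Carm1, Dot1l, Ash1l or Smyd1 to Smyd5, leaving out the Y-linked relative of Kdm5c. The rule found 55 of 37310 genes, and all 55 passed the low-count filter together with 15433 genes in all. The table uses older symbols for 10 of them: Mll1, Mll2, Mll3 and Mll5 are now Kmt2a, Kmt2d, Kmt2c and Kmt2e, Setd8, Suv420h1 and Suv420h2 are Kmt5a, Kmt5b and Kmt5c, Whsc1 and Whsc1l1 are Nsd2 and Nsd3, and Prmt10 is Prmt9. The rule matched no row for Mll4 or Kdm8, which were not analysed here.

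The 12 libraries formed 4 groups of 3: KO neurons given JQ1, WT neurons given JQ1, KO neurons given the vehicle DMSO and WT neurons given DMSO. JQ1 is a small molecule that displaces the BET bromodomain proteins from acetylated chromatin. Treatment began after 7 days in culture and lasted 24 h; the JQ1 dose, the knockout allele and the sex and age of the mice are not given in the labels. Fmr1 encodes FMRP, an RNA-binding protein whose loss in people causes fragile X syndrome, and the mice are a model of it. The labels do not say if replicates were grown apart or came from different animals, and the p-values then cover only the spread between these libraries.

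Histone methyltransferases add methyl groups to lysines or arginines of the histone tails, and demethylases remove them. Methylation of H3K4 (lysine 4 of histone H3) marks promoters and enhancers, and that of H3K36 and H3K79 marks transcribed gene bodies. Methylation of H3K9 and H3K27 and trimethylation of H4K20 are found in repressed chromatin. Several of these genes, among them Kdm5c, Kdm6a, Ehmt1, Mll1, Mll2, Setd5 and Nsd1, are known human neurodevelopmental disease genes.

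Gene counts per library ran from 21643592 to 134110850, and the 55 genes took 0.452% to 0.485% of them. Fmr1 itself, the check of the genotype labels, had 21.5, 22.2 and 29.4 CPM (gene counts scaled to library size) in KO DMSO libraries, against 124, 119 and 119 CPM in WT DMSO libraries, and 26.02, 27.6 and 34.6 CPM in KO JQ1 libraries, against 145, 154 and 135 CPM in WT JQ1 libraries. Both KO replicate 3 libraries stood apart in sex-linked RNA: Xist was 4.29 CPM in KO DMSO replicate 3 and 4.34 CPM in KO JQ1 replicate 3, against at least 230.5 CPM in the other 10 libraries, and the Y-linked Ddx3y was 54.6 and 76.2 CPM in these libraries, against at most 46.1 CPM in the others. The RNA was bulk, so fewer cells of a type and less RNA per cell cannot be told apart. Libraries were scaled by TMM (trimmed mean of M-values), so each change is read against the bulk of tested genes. Scaling to the added ERCC spike-in RNA, which took 0.118% to 0.348% of reads, moved the median log2 change of all tested genes to −0.824 for KO over WT in DMSO, to −0.121 for KO over WT in JQ1, to −0.633 for JQ1 over DMSO in WT and to 0.0665 for JQ1 over DMSO in KO.

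Levels were compared between genes as CPM per kb of exon. Exon lengths were matched for 54 of the 55, all but Prmt1, which is therefore not ranked. Before division by length, Prmt1 averaged 232 CPM in KO DMSO and 204 CPM in WT DMSO, above Prmt2 with 213 and 185 CPM. Among the 54, the highest level was that of Prmt2, a weakly active arginine methyltransferase. It had 62.9 ± 4.07 CPM per kb in KO DMSO neurons and 54.7 ± 0.260 in WT DMSO neurons (mean ± SD, n = 3 each). Kdm1a (LSD1), which removes mono- and dimethyl H3K4, followed with 33.8 ± 0.829 CPM per kb in KO DMSO neurons and 34.6 ± 1.23 in WT DMSO neurons. Ehmt2 (G9a), which dimethylates H3K9, had 35.3 ± 1.70 in KO DMSO neurons and 32.02 ± 1.63 in WT DMSO neurons, overlapping within SD with Kdm1a.

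Within the lysine methyltransferases, Smyd2 (30.3 ± 1.52 CPM per kb in KO DMSO, 27.9 ± 0.804 in WT DMSO) and Mll5 (17.2 ± 1.62 in KO DMSO, 18.3 ± 0.792 in WT DMSO) led the H3K4 group, although Mll5 is regarded as catalytically inactive. Ehmt1, the partner of Ehmt2, came after it in the H3K9 group with 12.3 ± 0.438 CPM per kb in KO DMSO and 11.8 ± 0.334 in WT DMSO. The H3K36 and H3K79 group was led by Whsc1 (18.6 ± 0.674 in KO DMSO, 20.6 ± 0.522 in WT DMSO), which dimethylates H3K36, and Setd2 (12.01 ± 1.38 in KO DMSO, 13.1 ± 0.705 in WT DMSO), which trimethylates it. In the H4K20 group, Setd8, which sets the first methyl group, had 10.5 ± 0.389 in KO DMSO and 9.93 ± 0.454 in WT DMSO, and Smyd5 had 8.16 ± 0.175 in KO DMSO and 8.12 ± 0.444 in WT DMSO. Prmt8, a membrane-bound arginine methyltransferase found mainly in brain, stood next to Prmt2 with 29.2 ± 1.12 in KO DMSO and 23.7 ± 1.10 in WT DMSO, with Prmt1 not ranked. Among the other SET domain genes, Setd3, an actin histidine methyltransferase, had 15.9 ± 0.298 in KO DMSO and 15.98 ± 0.420 in WT DMSO, and Setd5 had 8.39 ± 0.531 in KO DMSO and 8.52 ± 0.342 in WT DMSO.

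Among the H3K4 demethylases, Kdm5c, which removes trimethyl H3K4, came after Kdm1a with 12.4 ± 1.81 CPM per kb in KO DMSO and 11.1 ± 1.27 in WT DMSO. The H3K9 group was led by Kdm4b (28.9 ± 0.516 in KO DMSO, 27.4 ± 1.39 in WT DMSO) and Kdm4a (26.2 ± 1.06 in KO DMSO, 24.6 ± 0.729 in WT DMSO), whose ranges of mean ± SD did not overlap. The H3K27 demethylases were Kdm6b (JMJD3) at 10.5 ± 0.303 in KO DMSO and 8.95 ± 0.0975 in WT DMSO, and Kdm6a (UTX) at 2.65 ± 0.288 in KO DMSO and 3.67 ± 0.179 in WT DMSO. The H3K36 demethylases were Kdm2b (15.9 ± 0.639 in KO DMSO, 16.7 ± 0.256 in WT DMSO) and Kdm2a (6.23 ± 0.403 in KO DMSO, 6.52 ± 0.238 in WT DMSO). At the low end, Kdm4d had 0.406 ± 0.0666 in KO DMSO and 0.356 ± 0.0446 in WT DMSO, and Smyd1, best known from heart and skeletal muscle, had 0.399 ± 0.0607 in KO DMSO and 0.339 ± 0.0678 in WT DMSO.

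**Figure D1:**
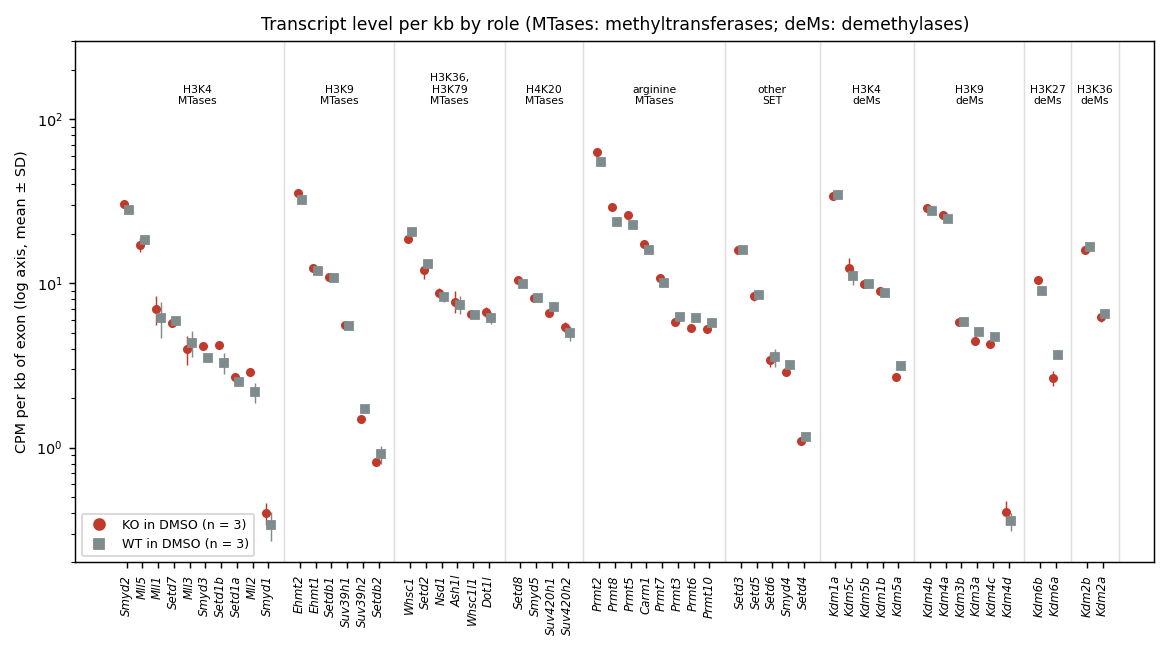
Transcript level of 54 histone methyltransferase and demethylase genes in CPM per kb of exon (log axis), by role group (MTases, methyltransferases; deMs, demethylases); points are means and bars SD of 3 KO DMSO libraries (red circles) and 3 WT DMSO libraries (grey squares). Among these 54 genes Prmt2 is highest, and Smyd1 and Kdm4d are lowest. Prmt1, without a matched exon length, is not shown.

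In DMSO, KO neurons differed from WT neurons in 12 of the 55 genes, beside 15% of all tested genes, at an adjusted p under 0.05 (edgeR quasi-likelihood F test, Benjamini-Hochberg over 15433 genes). The genes higher in KO numbered 7 (12.7%), beside 7.21% of all tested genes, and those lower in KO numbered 5 (9.09%), beside 7.76%. These were Mll2, Setd1b, Smyd3, Kdm6b, Prmt2, Prmt5 and Prmt8 on the higher side and Kdm6a, Kdm5a, Kdm3a, Prmt6 and Whsc1 on the lower side. The higher direction held relative to all genes only. With spike-in scaling all 7 took negative values, between −0.61 and −0.35 (log2), none of them called (adjusted p from 0.0591 to 0.258). The 5 lower genes stayed lower, between −1.28 and −0.95. The median of all tested genes was then −0.824, a shift that moves values down by itself, so it does not test the lower calls. With TMM scaling no change reached 2-fold. The median log2 change of the 55 genes was 0.018, beside −0.0146 for all tested genes, and libraries of the genotypes did not overlap for 12 genes on the higher side and 12 on the lower side, beside 17% and 20.7% of all tested genes.

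**Figure D2:**
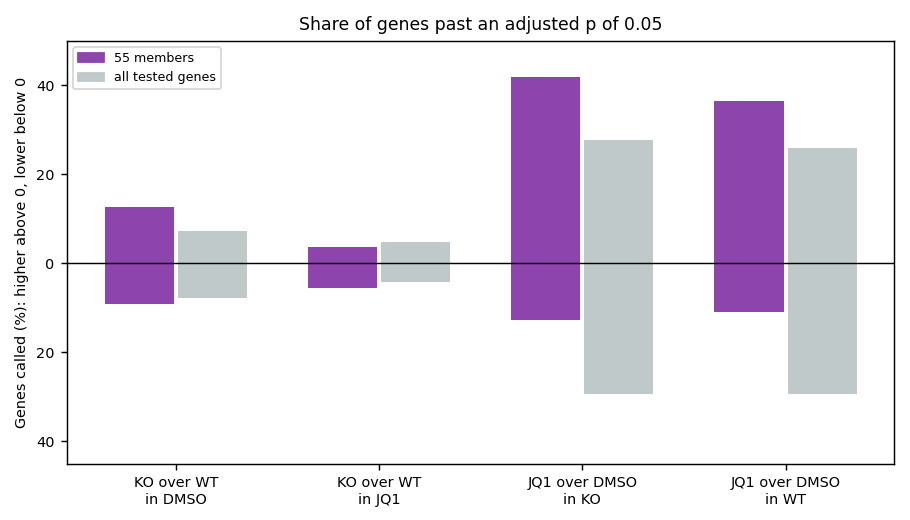
Percent of the 55 genes (purple) and of all 15433 tested genes (grey) past an adjusted p of 0.05 in each comparison, higher above 0 and lower below 0, relative to the middle of all genes. In both JQ1 comparisons the family has a larger share higher and a smaller share lower than all tested genes. With spike-in scaling no member is called higher in WT, beside 0.259% of all tested genes, and 1 is in KO, beside 1.33%.

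The H3K27 demethylases moved in opposite directions relative to all genes, while with spike-in scaling both were negative, Kdm6b without a call (adjusted p = 0.074). Kdm6a, an X-linked enzyme that also belongs to the Mll2 and Mll3 complexes, had 23.8, 23.4 and 19.4 CPM in KO DMSO libraries, against 32.5, 30.2 and 29.6 CPM in WT DMSO libraries. Every KO library lay below every WT library, and the log2 change was −0.47 (SE 0.0792, adjusted p = 0.00283). Kdm6b had 70.8, 74.2 and 74.7 CPM in KO DMSO libraries, against 62.03, 62.96 and 61.6 CPM in WT DMSO libraries. The groups did not overlap, and Kdm6b was higher in KO by 0.24 log2 (SE 0.0637, adjusted p = 0.0257).

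Kdm6a is 1 of 3 X-linked genes in the family, and KO replicate 3 was its lowest library within both KO groups. Without both KO replicate 3 libraries, the Kdm6a change was −0.38 in DMSO (adjusted p = 0.00331) and −0.35 in JQ1 (adjusted p = 0.00578), so it was also called within the libraries that held Xist. Kdm5c, which like Kdm6a is known to escape X inactivation, had 93.9, 97.1 and 73.4 CPM in KO DMSO libraries, against 72.6, 74.3 and 89.01 CPM in WT DMSO libraries. KO replicate 3 was the lowest KO library here as well, the groups overlapped, and the difference did not pass the test (0.16, SE 0.107, adjusted p = 0.319). The H3K9 methyltransferase Suv39h1 had 31.1, 28.8 and 29 CPM in KO DMSO libraries, against 29.3, 28.98 and 28.4 CPM in WT DMSO libraries, with overlapping groups (0.04, SE 0.0537, adjusted p = 0.699).

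**Figure D3:**
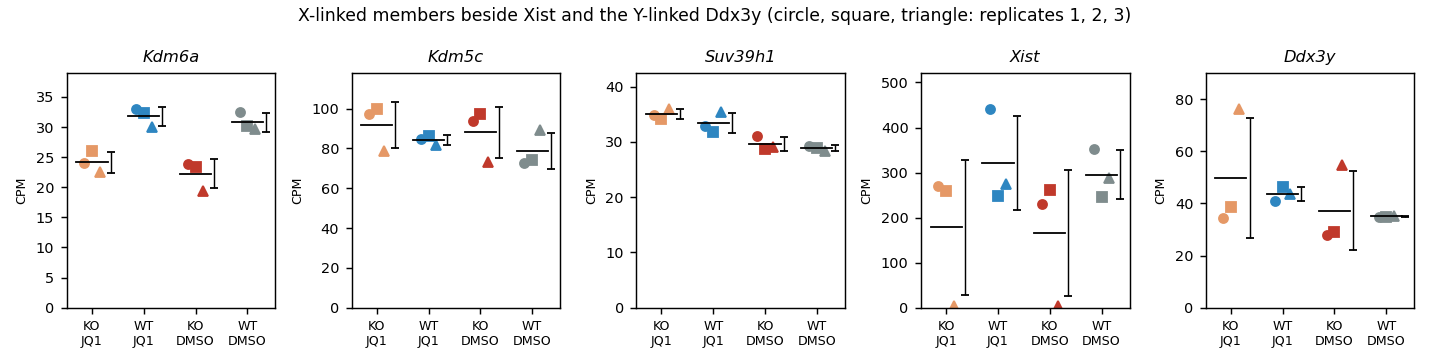
CPM of the X-linked Kdm6a, Kdm5c and Suv39h1 beside Xist and the Y-linked Ddx3y in all 12 libraries; lines are means, bars SD of 3 libraries, and circle, square and triangle are replicates 1, 2 and 3. Xist is near 0 in both KO replicate 3 libraries, and Kdm6a is lower in all KO libraries than in all WT libraries.

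Of the 10 H3K4 methyltransferases, 3 were higher in KO in DMSO and none was lower (30% and 0%, beside 7.21% and 7.76% of all tested genes). Mll2, which acts mainly at enhancers, had 54.7, 61.4 and 57.02 CPM in KO DMSO libraries, against 40.1, 39.8 and 50.3 CPM in WT DMSO libraries. WT replicate 3 was the highest WT library, below the lowest KO library, and the change was 0.41 (SE 0.104, adjusted p = 0.0187). Setd1b, the catalytic subunit of a promoter-bound COMPASS complex, had 50.3, 53.5 and 48.4 CPM in KO DMSO libraries, against 34.7, 38.3 and 45.8 CPM in WT DMSO libraries, with no overlap and a change of 0.36 (SE 0.0969, adjusted p = 0.0259). Smyd3, reported to methylate histones and the cytoplasmic kinase MAP3K2, had 40.4, 38.7 and 36.05 CPM in KO DMSO libraries, against 30.9, 32.6 and 33.1 CPM in WT DMSO libraries, again without overlap (0.25, SE 0.0512, adjusted p = 0.00714). Mll1 had 114, 140.1 and 94.1 CPM in KO DMSO libraries, against 84.5, 92 and 132 CPM in WT DMSO libraries. The libraries of Mll1 varied within both groups more than between them, and its difference did not pass the test (0.18, SE 0.157, adjusted p = 0.471).

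Of the 9 arginine methyltransferases, 3 were higher and 1 was lower in KO in DMSO (33.3% and 11.1%, beside 7.21% and 7.76% of all tested genes). Prmt8 had 83.1, 78.3 and 77.5 CPM in KO DMSO libraries, against 61.4, 67.2 and 65.2 CPM in WT DMSO libraries, the smallest adjusted p of the family in this comparison (0.30, SE 0.0457, adjusted p = 0.00151). Prmt5, the main enzyme for symmetric dimethylarginine, which it places on histones and splicing proteins, had 102, 103 and 104 CPM in KO DMSO libraries, against 89.7, 91.7 and 87.1 CPM in WT DMSO libraries (0.20, SE 0.038, adjusted p = 0.00474). Neither gene had overlapping groups. Prmt2 had 225, 215 and 198 CPM in KO DMSO libraries, against 186, 184 and 185 CPM in WT DMSO libraries, where the WT libraries were closely spaced and the KO libraries were not (0.20, SE 0.062, adjusted p = 0.0432). Prmt6, which methylates arginine 2 of histone H3, was the lower one, with 23.2, 22.2 and 21.7 CPM in KO DMSO libraries, against 26.5, 24.8 and 25.8 CPM in WT DMSO libraries (−0.20, SE 0.0524, adjusted p = 0.0219).

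The remaining genes lower in KO were a pair of demethylases and a methyltransferase. Kdm5a, which removes trimethyl H3K4, had 38.9, 38.03 and 36.6 CPM in KO DMSO libraries, against 43.8, 43.1 and 45.9 CPM in WT DMSO libraries (−0.22, SE 0.0534, adjusted p = 0.0143). Kdm3a, which removes mono- and dimethyl H3K9, had 36.6, 36.9 and 37.1 CPM in KO DMSO libraries, against 42.8, 40.6 and 40.8 CPM in WT DMSO libraries (−0.17, SE 0.0484, adjusted p = 0.033). Whsc1 had 314, 323 and 300.5 CPM in KO DMSO libraries, against 341, 342 and 357 CPM in WT DMSO libraries (−0.15, SE 0.0451, adjusted p = 0.0389). None of these had overlapping groups. No H3K9 or H4K20 methyltransferase and no H3K36 demethylase passed the test in this comparison, beside 15% of all tested genes.

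With each library left out in turn, Kdm6a, Prmt5, Prmt8 and Smyd3 were called every time. The other 8 lost the call without at least 1 library. Mll2 lost it without KO replicate 2, WT replicate 1 or WT replicate 2 (adjusted p up to 0.0812), Setd1b without these or KO replicate 1 (up to 0.102), and Kdm6b without KO replicate 2 or any WT library (up to 0.0701). Prmt2 lost it without any library but KO replicate 3 (up to 0.13), Prmt6 without any but WT replicate 2 (up to 0.0908), Kdm5a without any KO library or WT replicate 3 (up to 0.0913), and Kdm3a and Whsc1 without any of the 6 (up to 0.168 and 0.218). The count of genes higher in KO ran from 3, without KO replicate 2, WT replicate 1 or WT replicate 2 (beside 5.24%, 3.71% and 3.67% of all tested genes), to 10 without KO replicate 3 (beside 9.96%). The count of genes lower in KO was 1 without KO replicate 1, 2 or 3 or WT replicate 3 (beside 1.8%, 2.98%, 6.63% and 2.78%), 2 without WT replicate 1 (beside 3.68%) and 3 without WT replicate 2 (beside 3.53%).

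**Figure D4:**
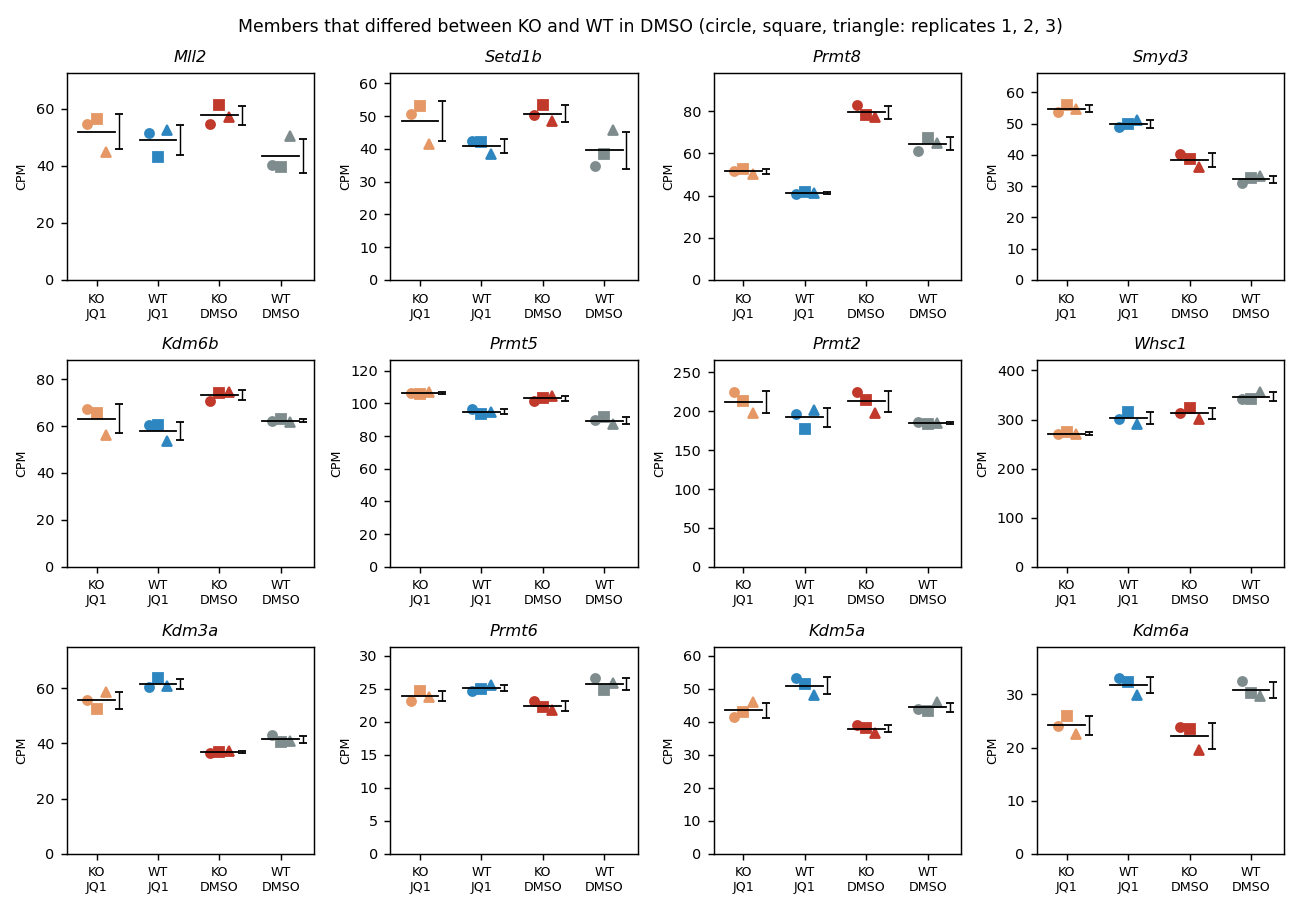
CPM in all 12 libraries of the 12 genes that differed between KO and WT in DMSO; lines are means, bars SD of 3 libraries, and circle, square and triangle are replicates 1, 2 and 3. Mll2 to Prmt2 are higher in KO DMSO than in WT DMSO libraries relative to all genes, and Whsc1 to Kdm6a are lower. With spike-in scaling Mll2 to Prmt2 take negative values, none of them called.

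In JQ1, KO neurons differed from WT neurons in 5 of the 55 genes, beside 8.97% of all tested genes, all of which were also called in DMSO in the same direction. The genes higher in KO were Prmt5 and Prmt8, 2 of 55 (3.64%) beside 4.85% of all tested genes, and those lower in KO were Kdm6a, Kdm5a and Whsc1, 3 of 55 (5.45%) beside 4.13%. The median change of the 55 genes was 0.00543, beside −0.00449 for all tested genes. Kdm6a had 24.1, 25.96 and 22.5 CPM in KO JQ1 libraries, against 33, 32.3 and 29.97 CPM in WT JQ1 libraries (−0.39, SE 0.079, adjusted p = 0.00885). Prmt8 had 51.5, 52.8 and 50.4 CPM in KO JQ1 libraries, against 40.96, 41.6 and 41.4 CPM in WT JQ1 libraries (0.32, SE 0.0468, adjusted p = 0.00209). The groups did not overlap for either gene. Prmt5 had 106, 106 and 107 CPM in KO JQ1 libraries, against 96.3, 93.2 and 94.9 CPM in WT JQ1 libraries (0.17, SE 0.038, adjusted p = 0.0167). Kdm5a had 41.4, 42.97 and 45.9 CPM in KO JQ1 libraries, against 53.04, 51.4 and 48.04 CPM in WT JQ1 libraries (−0.23, SE 0.0531, adjusted p = 0.0165). Whsc1 had 270.1, 274 and 270.5 CPM in KO JQ1 libraries, against 302, 316 and 291 CPM in WT JQ1 libraries (−0.16, SE 0.0452, adjusted p = 0.0429). These 3 genes also had groups without overlap.

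Of the 7 other genes called in DMSO, Mll2 had a change of 0.09 (adjusted p = 0.623) for KO over WT in JQ1, Setd1b 0.24 (0.13), Smyd3 0.14 (0.0965), Kdm6b 0.12 (0.26), Prmt2 0.14 (0.159), Prmt6 −0.07 (0.442) and Kdm3a −0.15 (0.0601). Each had the sign it had in DMSO. With each library left out in turn, Kdm6a and Prmt8 were called every time, Prmt5 was lost without KO replicate 1, WT replicate 1 or WT replicate 2 (adjusted p up to 0.0699), Kdm5a without these or KO replicate 2 (0.0849), and Whsc1 without any library but WT replicate 3 (0.166). The counts were 5 higher without KO replicate 3 (beside 6.43% of all tested genes) and 1 higher without KO replicate 1, WT replicate 1 or WT replicate 2 (beside 2.22%, 1.96% and 1.99%). The count of lower genes was 1 without KO replicate 1, KO replicate 2, WT replicate 1 or WT replicate 2 (beside 1.56%, 2.75%, 1.63% and 1.49%). With both KO replicate 3 libraries left out the counts were 7 higher and 6 lower, beside 7.84% and 7.96% of all tested genes. With both DMSO groups left out of the fit they were 1 and 1, beside 2.51% and 1.85%, and with spike-in scaling no gene of the family was called.

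With TMM scaling JQ1 changed more of the family than the genotype did, an order that does not hold with spike-in scaling. There 43 of the 55 genes were called lower for KO over WT in DMSO, beside 77.7% of all tested genes. For JQ1 over DMSO, 9 were then lower in WT, beside 37.7%, and 1 was higher in KO, beside 1.33%. With TMM scaling, 23 of the 55 genes were higher with JQ1 than with DMSO in KO neurons (41.8%, beside 27.7% of all tested genes) and 7 were lower (12.7%, beside 29.4%). In WT neurons 20 were higher (36.4%, beside 25.9%) and 6 were lower (10.9%, beside 29.3%). All 20 and all 6 were called in the same direction in KO. The median log2 change of the 55 genes was 0.0956 in KO and 0.0978 in WT, beside 0.00141 and −0.00431 for all tested genes. These directions are relative to all genes. With spike-in scaling 19 of the 20 genes higher in WT took negative values, all but Smyd1, and none of the 19 was called. The median of all tested genes was then −0.633 in WT. The 23 in KO kept positive values with 1 called. The genes lower with JQ1 stayed negative in both genotypes, with 6 called in WT and 0 in KO. The largest change in the family was the 1.88-fold and 1.92-fold rise of Smyd1 in KO and WT.

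By role, the genes for adding and for removing H3K9 methylation mostly rose with JQ1 relative to all genes. With spike-in scaling those called in WT took negative values, none of which passed the test. Of the 6 H3K9 methyltransferases, 5 were higher in both genotypes: Setdb2, Suv39h2, Setdb1, Ehmt1 and Suv39h1. These were 83.3% in each genotype, beside 27.7% of all tested genes in KO and 25.9% in WT. Setdb2 had 5.28, 4.93 and 4.52 CPM in KO JQ1 libraries, against 3.23, 3.37 and 3.29 CPM in KO DMSO libraries, and 5.40, 5.59 and 4.90 CPM in WT JQ1 libraries, against 4.10, 3.82 and 3.19 CPM in WT DMSO libraries. No JQ1 library of Setdb2 overlapped a DMSO library of its genotype, and the change was 0.57 in KO (SE 0.103, adjusted p = 0.000281) and 0.54 in WT (SE 0.105, adjusted p = 0.000639). Setdb1, which silences retroelements, had changes of 0.26 in KO (adjusted p = 8.42e-05) and 0.27 in WT (adjusted p = 7.26e-05). Ehmt2 did not pass the test, at −0.09 in KO (adjusted p = 0.214) and 0.03 in WT (adjusted p = 0.663).

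Of the 6 H3K9 demethylases, 5 were higher in KO (Kdm3a, Kdm3b, Kdm4a, Kdm4b and Kdm4c) and the same without Kdm4c in WT. The shares were 83.3% in KO and 66.7% in WT, beside 27.7% and 25.9% of all tested genes. Kdm3a had 55.6, 52.6 and 58.5 CPM in KO JQ1 libraries, against 36.6, 36.9 and 37.1 CPM in KO DMSO libraries, and 60.2, 63.5 and 60.8 CPM in WT JQ1 libraries, against 42.8, 40.6 and 40.8 CPM in WT DMSO libraries. JQ1 and DMSO libraries were well separated, with changes of 0.59 in KO (SE 0.0477, adjusted p = 2.22e-07) and 0.57 in WT (SE 0.0482, adjusted p = 3.49e-07). Kdm4c changed by 0.20 in KO (adjusted p = 0.00489) and had 0.12 in WT (adjusted p = 0.0849). Kdm4a was lost in KO without KO DMSO replicate 3 (adjusted p = 0.0569).

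Of the 5 H3K4 demethylases, 4 were higher in both genotypes, all but Kdm5c (80%, beside 27.7% of all tested genes in KO and 25.9% in WT). Kdm1b (LSD2), known for removing H3K4 methylation in oocytes, had 66.5, 70.9 and 76.1 CPM in KO JQ1 libraries, against 47.9, 52.1 and 48.97 CPM in KO DMSO libraries, and 68.1, 64.8 and 66.4 CPM in WT JQ1 libraries, against 47.7, 47.1 and 48.3 CPM in WT DMSO libraries. All JQ1 libraries lay above all DMSO libraries, with changes of 0.52 in KO (SE 0.0518, adjusted p = 1.49e-06) and 0.48 in WT (SE 0.0527, adjusted p = 4.11e-06). Kdm1a, Kdm5a and Kdm5b changed less, by 0.19, 0.20 and 0.18 in KO and by 0.23, 0.20 and 0.28 in WT. Without both KO replicate 3 libraries, Kdm5a in KO had an adjusted p of 0.0682.

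Of the 10 H3K4 methyltransferases, only Smyd1 and Smyd3 passed the test, both higher in both genotypes (20%, beside 27.7% of all tested genes in KO and 25.9% in WT). Smyd3 had 53.6, 56.02 and 54.7 CPM in KO JQ1 libraries, against 40.4, 38.7 and 36.05 CPM in KO DMSO libraries, and 48.8, 49.8 and 51.03 CPM in WT JQ1 libraries, against 30.9, 32.6 and 33.1 CPM in WT DMSO libraries. JQ1 libraries lay above all DMSO libraries, with changes of 0.51 in KO (SE 0.0499, adjusted p = 1.14e-06) and 0.63 in WT (SE 0.0513, adjusted p = 2.62e-07). Smyd1 was low throughout, with 3.56, 3.02 and 3.80 CPM in KO JQ1 libraries, against 2.13, 1.72 and 1.60 CPM in KO DMSO libraries, and 3.25, 2.81 and 2.85 CPM in WT JQ1 libraries, against 1.35, 1.90 and 1.38 CPM in WT DMSO libraries. Its groups did not overlap either, and the change was 0.91 in KO (SE 0.148, adjusted p = 0.000123) and 0.94 in WT (SE 0.163, adjusted p = 0.000224). The Mll and Setd1 genes, which apart from Mll5 encode the catalytic subunits of the COMPASS complexes, had changes between −0.15 and 0.11 in KO and between −0.03 and 0.21 in WT, and none passed the test.

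Of the 6 H3K36 and H3K79 methyltransferases, 3 were higher (Dot1l, Whsc1l1 and Setd2) and 1 was lower (Whsc1) in both genotypes. These were 50% and 16.7%, beside 27.7% and 29.4% of all tested genes in KO and 25.9% and 29.3% in WT. Dot1l, the H3K79 methyltransferase, had 84.4, 70.8 and 68.3 CPM in KO JQ1 libraries, against 55.3, 55.5 and 62.8 CPM in KO DMSO libraries, and 68.9, 74.1 and 67.7 CPM in WT JQ1 libraries, against 55.4, 57.5 and 48.7 CPM in WT DMSO libraries. The groups did not overlap within a genotype, with changes of 0.36 in KO (SE 0.0813, adjusted p = 0.00158) and 0.39 in WT (SE 0.0826, adjusted p = 0.00122). The related H3K36 enzymes Whsc1l1 and Whsc1 moved apart. Whsc1l1 had 136, 141 and 133 CPM in KO JQ1 libraries, against 106, 112 and 104 CPM in KO DMSO libraries, and 139, 139.7 and 136 CPM in WT JQ1 libraries, against 105, 102 and 111 CPM in WT DMSO libraries. Whsc1 had 270.1, 274 and 270.5 CPM in KO JQ1 libraries, against 314, 323 and 300.5 CPM in KO DMSO libraries, and 302, 316 and 291 CPM in WT JQ1 libraries, against 341, 342 and 357 CPM in WT DMSO libraries. Whsc1l1 rose by 0.34 in KO (SE 0.0458, adjusted p = 2.11e-05) and 0.38 in WT (SE 0.0462, adjusted p = 1.01e-05). Whsc1 had changes of −0.20 in KO (SE 0.0452, adjusted p = 0.0016) and −0.19 in WT (SE 0.0452, adjusted p = 0.00231).

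The H4K20 group also held changes in both directions. Suv420h2, which adds further methyl groups after Setd8, had 34.9, 29.2 and 30.5 CPM in KO JQ1 libraries, against 21.2, 20.3 and 23.5 CPM in KO DMSO libraries, and 28.7, 28.8 and 27.9 CPM in WT JQ1 libraries, against 19.98, 21.8 and 17.7 CPM in WT DMSO libraries. It rose by 0.54 in KO (SE 0.0827, adjusted p = 7.41e-05) and 0.52 in WT (SE 0.0852, adjusted p = 0.000137). Smyd5, reported to trimethylate H4K20, had 31.2, 34.5 and 34.01 CPM in KO JQ1 libraries, against 48, 48.6 and 46.6 CPM in KO DMSO libraries, and 34.98, 32.2 and 32.2 CPM in WT JQ1 libraries, against 48.99, 48.96 and 44.5 CPM in WT DMSO libraries. It had changes of −0.52 in KO (SE 0.0564, adjusted p = 3.25e-06) and −0.52 in WT (SE 0.0572, adjusted p = 4.14e-06), and JQ1 and DMSO libraries did not overlap for either gene. Suv420h1, the paralog of Suv420h2, had −0.03 in KO (adjusted p = 0.527) and −0.03 in WT (adjusted p = 0.566).

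Of the 9 arginine methyltransferases, 3 were lower (Prmt8, Carm1 and Prmt1) and 1 was higher (Prmt3) in both genotypes. These were 33.3% and 11.1%, beside 29.4% lower and 27.7% higher of all tested genes in KO. In WT all tested genes had 29.3% and 25.9%. Prmt8 had 51.5, 52.8 and 50.4 CPM in KO JQ1 libraries, against 83.1, 78.3 and 77.5 CPM in KO DMSO libraries, and 40.96, 41.6 and 41.4 CPM in WT JQ1 libraries, against 61.4, 67.2 and 65.2 CPM in WT DMSO libraries. The 4 groups of Prmt8 were separate from one another, in the order KO DMSO, WT DMSO, KO JQ1 and WT JQ1 from high to low. Its changes with JQ1 were −0.63 in KO (SE 0.0458, adjusted p = 9.03e-08) and −0.65 in WT (SE 0.0468, adjusted p = 9.17e-08). Carm1, a coactivator that methylates arginine 17 of histone H3, had 72.8, 73.7 and 66.3 CPM in KO JQ1 libraries, against 84.1, 85.9 and 81.7 CPM in KO DMSO libraries, and 66.9, 66.7 and 61.3 CPM in WT JQ1 libraries, against 77.04, 76.5 and 79.9 CPM in WT DMSO libraries. The groups did not overlap, with changes of −0.24 in KO (adjusted p = 0.000921) and −0.26 in WT (adjusted p = 0.000645). Prmt1, the main enzyme for asymmetric dimethylarginine, had changes of −0.17 in KO (adjusted p = 0.0248) and −0.16 in WT (adjusted p = 0.0346). The Prmt1 call was lost in KO without KO DMSO replicate 1 or 2 or KO JQ1 replicate 3 (adjusted p up to 0.0926) and in WT without any WT DMSO library or WT JQ1 replicate 2 (up to 0.156). Prmt3, which methylates a ribosomal protein, had changes of 0.24 in KO (adjusted p = 0.00195) and 0.22 in WT (adjusted p = 0.00354).

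The largest fall was that of Smyd4, a SET and MYND domain gene, with 7.63, 7.77 and 7.45 CPM in KO JQ1 libraries, against 12.98, 12.3 and 12.02 CPM in KO DMSO libraries, and 7.94, 7.96 and 7.89 CPM in WT JQ1 libraries, against 13.3, 13.6 and 14.5 CPM in WT DMSO libraries. All JQ1 libraries lay far below all DMSO libraries, with changes of −0.70 in KO (SE 0.0648, adjusted p = 7.02e-07) and −0.80 in WT (SE 0.0656, adjusted p = 2.81e-07). Besides Kdm4c, the genes called in KO and not in WT were Kdm2a, Setd6 and Kdm6b. Kdm2a had 0.13 in KO (adjusted p = 0.0446) and 0.09 in WT (adjusted p = 0.171), Setd6, which methylates the NF-κB subunit RelA, had 0.29 in KO (adjusted p = 0.0245) and 0.17 in WT (adjusted p = 0.205), and Kdm6b had −0.21 in KO (adjusted p = 0.0104) and −0.09 in WT (adjusted p = 0.23). The Kdm2a call was lost without KO DMSO replicate 1 or 3 or KO JQ1 replicate 1 or 2 (adjusted p up to 0.307) and the Setd6 call without KO DMSO replicate 2 or KO JQ1 replicate 1 (up to 0.133). Without both KO replicate 3 libraries the adjusted p in KO was 0.084 for Kdm2a, 0.0641 for Setd6 and 0.0948 for Kdm6b.

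**Figure D5:**
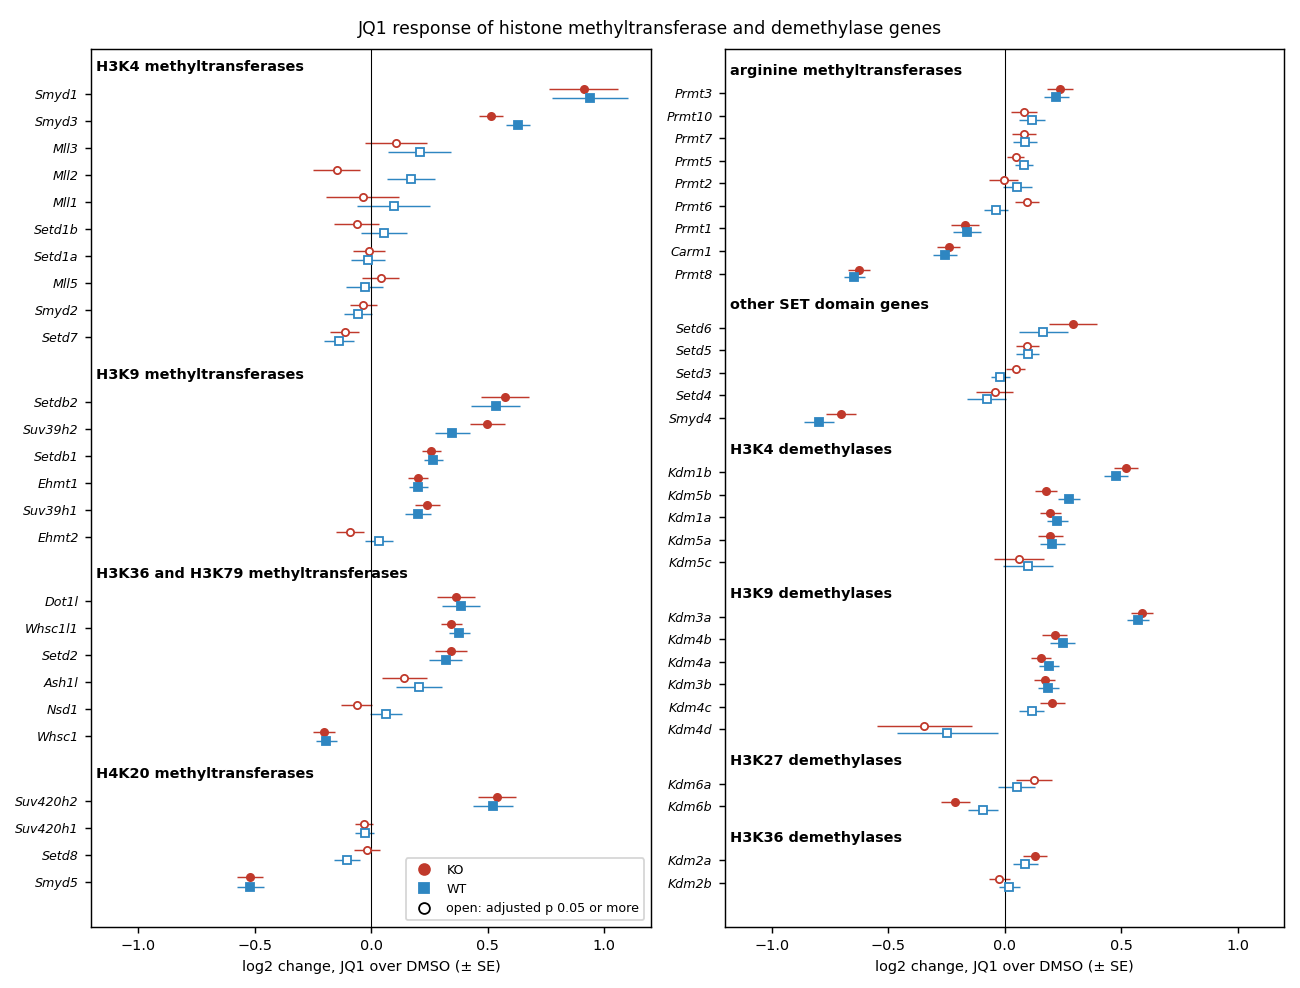
Log2 change of each of the 55 genes with JQ1 over DMSO, by role group, in KO (red circles) and WT (blue squares), relative to the middle of all genes; bars are SE and open symbols have an adjusted p of 0.05 or more. The H3K9 methyltransferases and demethylases lie mostly right of 0, with Smyd4, Prmt8 and Smyd5 furthest left. With spike-in scaling 19 of the 20 genes higher in WT take negative values, none of them called.

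The promoters of the 4 members that carry the JQ1 changes most clearly among genes with exactly 1 promoter entry, 2 that rose and 2 that fell, are given here so that their sequence can be read beside their response. They were called in both genotypes, averaged at least 10 CPM and had the largest changes; each is the 250 bases before the RefSeq start on the plus strand of GRCm38.p6, with GC boxes (GGGCGG on either strand) in capitals. The sites are chr7:4739877-4740126 for Suv420h2, chr13:47043249-47043498 for Kdm1b, chr11:75348183-75348432 for Smyd4 and chr6:85431726-85431975 for Smyd5.
Suv420h2 (higher): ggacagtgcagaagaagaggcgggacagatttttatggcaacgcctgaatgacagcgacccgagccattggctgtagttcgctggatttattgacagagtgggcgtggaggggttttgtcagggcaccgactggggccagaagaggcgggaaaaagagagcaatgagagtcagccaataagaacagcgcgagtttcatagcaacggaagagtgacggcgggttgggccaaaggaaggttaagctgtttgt
Kdm1b (higher): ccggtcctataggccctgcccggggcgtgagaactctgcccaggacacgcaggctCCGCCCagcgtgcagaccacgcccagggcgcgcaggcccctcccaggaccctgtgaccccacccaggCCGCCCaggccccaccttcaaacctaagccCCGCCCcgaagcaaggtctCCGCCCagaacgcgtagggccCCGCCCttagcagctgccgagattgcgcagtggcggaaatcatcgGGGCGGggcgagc
Smyd4 (lower): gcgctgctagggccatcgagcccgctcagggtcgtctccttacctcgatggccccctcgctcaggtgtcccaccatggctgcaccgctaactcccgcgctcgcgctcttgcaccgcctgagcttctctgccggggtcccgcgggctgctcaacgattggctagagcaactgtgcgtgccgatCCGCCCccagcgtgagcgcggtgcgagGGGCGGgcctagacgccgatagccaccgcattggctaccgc
Smyd5 (lower): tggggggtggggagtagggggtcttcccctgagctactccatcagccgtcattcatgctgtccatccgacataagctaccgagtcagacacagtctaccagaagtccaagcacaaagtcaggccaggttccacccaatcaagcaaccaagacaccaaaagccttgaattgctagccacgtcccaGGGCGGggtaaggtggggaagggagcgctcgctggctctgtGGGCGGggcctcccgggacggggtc
The GC box occurred 0 times in Suv420h2, 6 times in Kdm1b, 2 times in Smyd4 and 2 times in Smyd5, so its number did not separate the pair that rose from the pair that fell. None held an E-box (CACGTG) or a TATA box (TATAAA). Of the 32851 mouse promoters of this length, 32.7% held a GC box, 6.02% an E-box and 12.4% a TATA box. The 55 promoter entries of the 42 members with an entry held a GC box in 67.3% of cases and had a median of 20 CpG dinucleotides, beside 6 for all promoters. The motifs do not overlap one another in these sequences, and a match is a string of letters and not a measured binding site.

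The response to JQ1 was not shown to differ between the genotypes for any of the 55 genes. The test of the difference (KO response minus WT response) called 0 genes of the family and 0 of all 15433 genes with edgeR, and 0 with DESeq2. At an unadjusted p under 0.05 edgeR counted 355 genes (2.3%) and DESeq2 235. The only one in the family was Mll2, which had 54.8, 56.3 and 44.8 CPM in KO JQ1 libraries, against 54.7, 61.4 and 57.02 CPM in KO DMSO libraries, and 51.6, 43.2 and 52.7 CPM in WT JQ1 libraries, against 40.1, 39.8 and 50.3 CPM in WT DMSO libraries. Its response was −0.15 in KO and 0.17 in WT, a difference of −0.32 (SE 0.147, adjusted p = 1). For the H3K27 pair the difference in response was 0.07 for Kdm6a (SE 0.112) and −0.12 for Kdm6b (SE 0.0903).

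Genes that work with these enzymes were read from 6 lists of partners and other writers and erasers. Their counts stand beside the shares of all tested genes. With JQ1 these were 27.7% higher and 29.4% lower in KO, and 25.9% and 29.3% in WT. For KO over WT they were 7.21% higher and 7.76% lower in DMSO, and 4.85% and 4.13% in JQ1. Of 11 partner subunits of the COMPASS complexes, 6 were higher and 1 was lower with JQ1 in both genotypes, while none of the Mll and Setd1 genes passed the test. Dpy30, a core subunit, changed by 0.50 in KO (adjusted p = 7.03e-05) and 0.47 in WT (adjusted p = 0.000143). Paxip1, of the Mll2 and Mll3 complexes, changed by 0.35 in KO (adjusted p = 8.21e-06) and 0.35 in WT (adjusted p = 9.68e-06). Wdr82, of the Setd1 complexes, changed by 0.29 in KO (adjusted p = 3.8e-05) and 0.32 in WT (adjusted p = 1.85e-05), while Ncoa6 was lower, at −0.31 and −0.36. Between genotypes, 0 of the 11 were called in DMSO and 1 in JQ1, Men1 at 0.19 (adjusted p = 0.046).

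Of 13 writers and erasers outside the naming rule, JQ1 left 5 higher and 3 lower in KO (38.5% and 23.1%, beside 27.7% and 29.4% of all tested genes). In WT it left 4 higher and 3 lower (30.8% and 23.1%, beside 25.9% and 29.3%). The H3K9 and H3K27 demethylase Jhdm1d (Kdm7a) changed by 0.53 in KO (adjusted p = 1.07e-05) and 0.57 in WT (adjusted p = 6.29e-06). Hr, the hairless demethylase, had 1.43, 1.64 and 1.79 CPM in KO JQ1 libraries, against 3.89, 4.02 and 4.23 CPM in KO DMSO libraries, and 2.27, 2.55 and 1.31 CPM in WT JQ1 libraries, against 5.63, 4.74 and 5.61 CPM in WT DMSO libraries. It fell in both genotypes (−1.32 in KO, adjusted p = 1.16e-05, and −1.26 in WT, adjusted p = 1.2e-05). Prdm8, a PRDM factor of developing neurons, was higher in KO than in WT by 0.59 in DMSO (adjusted p = 4.19e-05) and 0.58 in JQ1 (adjusted p = 6.19e-05), and higher with JQ1 by 0.39 in KO and 0.40 in WT. Ezh2, the H3K27 methyltransferase, was lower in KO than in WT, at −0.41 in DMSO (adjusted p = 0.00831) and −0.29 in JQ1 (adjusted p = 0.0453).

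Of 11 LSD1-CoREST partners, 4 were higher and 3 lower with JQ1 in each genotype (36.4% and 27.3%). All tested genes had 27.7% and 29.4% in KO, and 25.9% and 29.3% in WT. Rcor1 was at 0.34 in KO (adjusted p = 8.08e-06) and 0.27 in WT (adjusted p = 7.6e-05). Between genotypes, 3 were lower in KO in DMSO and 2 in JQ1, with Zmym2 at −0.25 in DMSO (adjusted p = 0.00587) and −0.20 in JQ1 (adjusted p = 0.0251). Of 9 partners of H3K9 methylation, 4 were higher and 1 lower with JQ1 in KO, and 5 and 1 in WT. Trim28, which recruits Setdb1, changed by 0.31 in KO (adjusted p = 0.000313) and 0.35 in WT (adjusted p = 0.000126), and Wiz, which joins Ehmt1 and Ehmt2, by −0.41 in KO (adjusted p = 0.000112) and −0.37 in WT (adjusted p = 0.000309). In this list 1 gene was lower in KO than in WT in DMSO and 2 in JQ1, among them Zfp644 at −0.24 in DMSO (adjusted p = 0.0116). Of 7 partners of arginine methylation, 5 were higher and 1 lower with JQ1 in KO and 2 were higher in WT, with the Prmt5 cofactor Wdr77 at 0.37 in KO (adjusted p = 1.89e-05) and 0.30 in WT (adjusted p = 0.000173); 2 were lower in KO than in WT in DMSO, and 0 were called in JQ1. Of 4 DOT1L partners, 1 was higher and 1 lower with JQ1 in KO, 0 were called in WT, and Mllt10 was lower in KO than in WT in DMSO (−0.26, adjusted p = 0.00553).

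Markers of cell types moved beside these comparisons. Their counts, too, stand beside the shares of all tested genes given with the partner lists. In DMSO, 6 of 8 inhibitory neuron markers were higher in KO, with a summed level of 572 to 633 CPM in KO libraries and 415 to 512 CPM in WT libraries, and 2 of 7 astrocyte markers were lower (369 to 510 CPM in KO and 543 to 657 CPM in WT), as were 2 of 8 progenitor markers (187 to 229.9 CPM in KO and 227 to 258 CPM in WT) and 2 of 5 tested fibroblast and vessel markers (10.5 to 15.2 CPM in KO and 26.6 to 34.6 CPM in WT). The 2 lower fibroblast and vessel markers were Dcn and Lum, and Dcn alone averaged 10.9 CPM in KO DMSO and 28 CPM in WT DMSO. Col1a1 (0.98, adjusted p = 0.0804) and Col1a2 (1.34, adjusted p = 0.0634) went the other way without a call. Both were low, with every KO DMSO library above every WT DMSO library. Pan-neuronal markers were higher in KO for 3 of 6 genes (6523 to 6896 CPM in KO and 5875 to 6318 CPM in WT), and excitatory neuron markers were higher for 3 and lower for 1 of 7. In JQ1, 3 of 8 inhibitory neuron markers were higher in KO (521 to 625 CPM in KO and 379.5 to 569 CPM in WT) and 3 of 8 progenitor markers were lower (187 to 246 CPM in KO and 268 to 329.8 CPM in WT). The progenitor marker Eomes went the other way without a call, at 1.53 in DMSO (adjusted p = 0.216) and 1.95 in JQ1 (adjusted p = 0.152). Its levels were low and uneven, with 3.235, 2.51 and 0.166 CPM in KO DMSO libraries, against 0.879, 0.263 and 0.935 CPM in WT DMSO libraries. With JQ1, 4 of 7 astrocyte markers were lower in KO (226 to 390 CPM with JQ1 and 369 to 510 CPM with DMSO) and 5 of 7 in WT (395 to 520 CPM with JQ1 and 543 to 657 CPM with DMSO). Microglia markers were lower with JQ1 for 2 of 4 tested genes in each genotype (6.93 to 8.13 CPM with JQ1 and 7.68 to 9.36 CPM with DMSO in KO, 5.91 to 6.71 CPM with JQ1 and 7.89 to 8.67 CPM with DMSO in WT), fibroblast and vessel markers for 3 of 5 (7.49 to 10.5 CPM with JQ1 and 10.5 to 15.2 CPM with DMSO in KO, 15.1 to 20.15 CPM with JQ1 and 26.6 to 34.6 CPM with DMSO in WT), and oligodendrocyte lineage markers for 2 of 6, with summed levels that overlapped. In the oligodendrocyte lineage list, Olig1 went the other way with JQ1. It was called higher in WT (0.41, adjusted p = 0.0103) and not in KO (0.23, adjusted p = 0.108). Olig2 was positive without a call, at 0.16 in KO and 0.23 in WT. No listed marker was at 0 in all libraries. The part of these cell types in the changes of the 55 genes was not tested.

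The authors' deposited table of KO over WT gave an adjusted p for 53 of the 55 genes, of which 9 were higher and 3 lower in KO, beside 23.8% of 11880 genes in either direction. In the authors' deposited table the 12 included Ehmt2 (0.15) and Prmt1 (0.19), which were not called above, while Kdm3a (−0.14, adjusted p = 0.0594) and Prmt6 (−0.17, adjusted p = 0.0521), called lower above, were not under 0.05. In the authors' deposited table Kdm6a was at −0.40, Kdm5a at −0.20 and Whsc1 at −0.13.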

How the data were processed

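RNA of cultured mouse cortical neurons was sequenced from TruSeq libraries as 75-base single reads on a NextSeq500, per the labels' protocols. Per the submitters' processing notes, TopHat2 2.1.0, SAMtools 0.1.19, HTSeq 0.6.1, DESeq2 and DESeq were used with the mm9 genome. Strandedness: not given in the sources used here. Genes that overlap another, on either strand, therefore have uncertain values. The deposited table holds raw read counts per gene for 12 of 18 samples; the 6 THZ1 samples were not analysed here. The authors' deposited DESeq2 table gives a mean normalised signal, log2 fold changes with their errors, a Wald score, and raw and adjusted p-values, and was used only to be set beside the results.

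The fit used edgeR 4.0.16 (R 4.3.3). filterByExpr was applied with a minimum count of 10, leaving 15433 of 37310; 92 ERCC sequences stayed out of library sizes. TMM-scaled libraries were fitted with 1 mean per group and 8 residual degrees of freedom, and p-values of the quasi-likelihood F test were adjusted by Benjamini-Hochberg over all tested genes for each of 5 comparisons, a call being an adjusted p under 0.05. Each SE was worked back from that test, as the absolute log2 change divided by the square root of F. The script was tested on simulated counts. DESeq2 1.42.0, RLE scaling, ERCC scaling, no filter, only the libraries compared, a replicate block and leaving out libraries were the alternatives. CPM per kb used exon unions of GENCODE M21, and promoters came from RefSeq (GRCm38.p6); current symbols were matched by gene ID. The depth of 21643592 to 134110850 gene counts makes counting error small for all but the few lowest genes.

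Deviations from group means correlated between KO JQ1 and KO DMSO libraries of the same number at 0.21 to 0.29, so numbers were taken to pair the libraries there. In WT the range was 0.094 to 0.16. The main fit held no pairing term, so its p-values for JQ1 over DMSO leave pairing out. With a term for replicate number within each genotype, all 56 values called with JQ1 kept direction and call. The test of the difference in response then called 0 genes. The members, lists and alternatives were chosen with earlier results of these data known. Named were all members called between genotypes, the 8 largest rises and falls called with JQ1 in both genotypes, members called in 1 genotype, X-linked members, the 2 highest per role group, and up to 3 called genes per partner list; others named were chosen after their values were seen.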

Additional observations from a re-analysis of the deposited data

How the results depend on the processing

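Of 73 called values, 73 kept direction and call with DESeq2, 71 with RLE scaling, 68 without a low-count filter, 68 with only the libraries compared and 68 without both KO replicate 3 libraries; the others kept their direction. The replicate block kept all 73 and ended no call. It gave 8 higher and 5 lower for KO over WT in DMSO (beside 8.33% and 9.74% of all tested genes), against 7 and 5 without it (beside 7.21% and 7.76%). Between genotypes, libraries of the same number correlated at −0.18 to 0.011 in DMSO, and 0 of 3 KO libraries matched best with their own number. In JQ1 the range was −0.016 to 0.12, and 2 of 3 matched best. The labels do not say whether the numbers link libraries between genotypes.
Spike-in scaling changed most: 0 higher and 43 lower for KO over WT in DMSO (77.7% of all tested genes were lower), 0 and 0 in JQ1, 0 higher and 9 lower with JQ1 in WT (37.7% lower), and 1 higher and 0 lower in KO (1.33% and 8.51%). Signs then turned for KO over WT in DMSO in Kdm6b (−0.57), Mll2 (−0.35), Prmt2 (−0.61), Prmt5 (−0.61), Prmt8 (−0.51), Setd1b (−0.41) and Smyd3 (−0.56). For JQ1 over DMSO in WT they turned in Dot1l (−0.26), Ehmt1 (−0.43), Kdm1a (−0.42), Kdm1b (−0.16), Kdm3a (−0.066), Kdm3b (−0.44), Kdm4a (−0.44), Kdm4b (−0.39), Kdm5a (−0.42), Kdm5b (−0.35), Prmt3 (−0.42), Setd2 (−0.30), Setdb1 (−0.37), Setdb2 (−0.11), Smyd3 (−0.0026), Suv39h1 (−0.44), Suv39h2 (−0.28), Suv420h2 (−0.12) and Whsc1l1 (−0.25). None of these turned values was called. The spike-in share of reads ran from 0.1685% to 0.3484% within the KO DMSO libraries alone. No source used here states the amount of spike-in added, and the cause was not tested.
Without a low-count filter 2 genes were lower for KO over WT in DMSO, beside 4.39% of all tested genes. For KO over WT in JQ1, fitting only the libraries compared gave 1 higher and 1 lower (beside 2.51% and 1.85%), and DESeq2 gave 5 lower (beside 5.6%). Leaving out both KO replicate 3 libraries gave 7 higher and 6 lower (beside 7.84% and 7.96%). The cause was not tested. Leaving out 1 library at a time gave 3 to 10 higher and 1 to 3 lower for KO over WT in DMSO, and 1 to 5 and 1 to 4 in JQ1. For JQ1 over DMSO in KO it gave 21 to 23 higher and 6 to 7 lower (beside 23.2% to 25.7% and 26.9% to 28.9% of all tested genes). In WT it gave 20 to 23 and 5 to 6 (beside 22.3% to 24.5% and 25% to 28%). Depth limits the values of Smyd1 and Kdm4d most.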
